A study of Rattus norvegicus with 21 samples.

Results

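The 6 libraries described here come from the full-thickness urinary bladders of uninjured rats at 0 weeks (3 libraries) and 2 weeks (3 libraries), out of 21 libraries in the series. Membership rests on the labels: they are the control groups at the first 2 time points of a study of spinal cord injury (SCI). All animals were male Sprague Dawley rats, labelled genotype WT, and the labels put every library in batch 1. Sprague Dawley is an outbred strain, so animals of 1 group differ in genotype. The other 5 groups of 3 are uninjured controls at 8 and 16 weeks and rats with a complete transection of the thoracic cord at 2, 8 and 16 weeks. Rats were 6 to 7 weeks old at injury, and no label states the age of the 0-week group. The series' design text counts 18 samples and does not name a 0-week group. For the 0-week and 2-week animals the labels name no transection, drug or sham operation. Each library carries an identifier of its own, but nothing states that replicates were processed separately. The p-values therefore rest on a spread between samples that may in part be technical. In the main test that spread was estimated over all 21 libraries and not from the 0-week and 2-week animals alone.

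The bladder wall holds a urothelium that lines the lumen, a connective tissue layer with vessels, nerves and fibroblasts, and the smooth muscle of the detrusor that empties the organ. In a young rat the bladder still grows with the body. A full-thickness sample mixes all these layers, so fewer cells of a type and less RNA per cell cannot be told apart. Uninjured animals collected at successive times show how the tissue differs between those times without injury. They also show how far animals of equal treatment lie from each other, and every injury effect is read against both. Each time is a different set of animals, so time cannot be told apart from the set collected at it.

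Total counts were 11723111, 11690215 and 8958480 in the 0-week libraries and 11047822, 12273238 and 9902364 in the 2-week libraries. Of 32754 genes in the table, 15225 had enough counts to enter the test. The genes are given by Ensembl rat identifiers only. The reference tables paired 0 of these identifiers with a symbol, so the tissue could not be checked against its marker genes, no gene list could be applied and no promoter or protein sequence could be matched. Genes are therefore described by abundance, by spread and by the library in which they stood apart, and 4 of them are shown by identifier.

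The first question was what changed in the uninjured bladder over 2 weeks. No gene passed the threshold: edgeR's quasi-likelihood test called 0 of 15225 genes (0%) at a Benjamini-Hochberg adjusted p under 0.05, and the smallest adjusted p was 0.0641. At an unadjusted p under 0.05, 1038 genes (6.82%) were higher at 2 weeks and 1006 (6.61%) were lower, 2044 in all. DESeq2 called 45 genes, 18 higher and 27 lower. The unadjusted p-values were not evenly spread, since an even spread would place 761 genes in that range. The count of 2044 rests on the spread estimated over all 21 libraries, and a fit of only the 6 libraries compared gave 1025. With 3 animals against 3, the smallest two-sided p of an exact permutation test is 0.1, so genes were tested only in the model fitted across all of them.

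**Figure D1:**
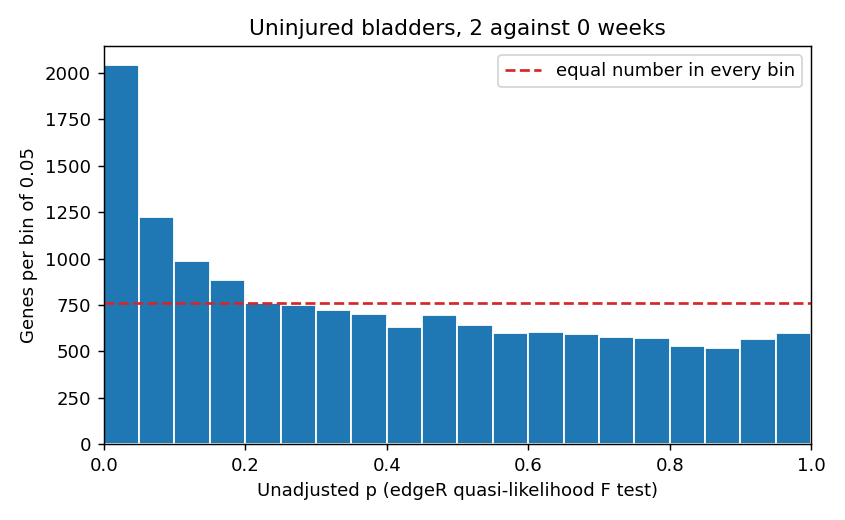
Number of genes (vertical axis) in each bin of 0.05 of the unadjusted p (horizontal axis) for uninjured bladders at 2 against 0 weeks, 15225 genes. The lowest bin holds 2044 genes against the 761 of an even spread (dashed line), and no gene passed after adjustment.

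The differences were small and in this fit went both ways about equally. The median absolute log2 fold change was 0.16, against a median standard error of 0.18, and 90% of the genes differed by less than 0.51. The fitted difference exceeded 1 on the log2 scale (2-fold) for 353 genes, 176 higher and 177 lower at 2 weeks. Of these 353 genes, 245 had an unadjusted p under 0.05, with 106 higher and 139 lower. The equal split depends on the scaling and on the libraries fitted. In a fit of only the 6 libraries, 620 of 1025 genes at an unadjusted p under 0.05 (60.5%) were higher at 2 weeks. With library size in place of TMM factors, which correct for a few abundant genes taking a larger share, 75.9% of the genes at an unadjusted p under 0.05 were higher at 2 weeks instead of 50.8%, and the median log2 fold change of all genes moved from -0.02 to 0.04. Between the 2-week and 8-week controls, which share the 2-week libraries with this comparison, the median absolute log2 fold change was 0.19 and 482 genes exceeded 1. Between the 8-week and 16-week controls it was 0.14 and 420 genes exceeded 1.

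The libraries of the 2 weeks separated fully for a minority of genes. In 1237 genes (8.12%) all 3 libraries at 2 weeks lay above all 3 at 0 weeks, and in 1146 genes (7.53%) all lay below. Both directions together made 15.7% of the genes. For 3 exchangeable libraries against 3, full separation in either direction has a probability of 0.1, so many genes would separate without any effect of week. In 4505 genes (29.6%) the whole 2-week group lay inside the range spanned by the 0-week animals. In 1202 genes (7.89%) the 0-week group lay inside the 2-week range. Of the 2383 genes whose libraries did not overlap, 1408 also had an unadjusted p under 0.05.

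The gene with the smallest p was ENSRNOG00000060810, whose level was lower at 2 weeks without passing the threshold. Its level was 21.0, 16.4 and 14.9 CPM (TMM-scaled CPM, a count relative to library size) in 0-week replicates 1, 2 and 3, and 7.31, 8.61 and 10.1 CPM in the 2-week replicates. All 0-week animals lay above all 2-week animals. The mean level was 17.5 ± 3.16 CPM (SD, n = 3) at 0 weeks and 8.69 ± 1.42 CPM (SD, n = 3) at 2 weeks, a log2 fold change of -1.01 with a standard error of 0.16. Its adjusted p in edgeR's quasi-likelihood test was 0.0641. Over 13 other settings the adjusted p ran from 4.72e-05 in DESeq2 to 0.684, and the log2 fold change stayed between -1.13 and -0.85. In the later uninjured groups the level was 8.74 to 10.4 CPM at 8 weeks and 9.15 to 11.7 CPM at 16 weeks, so the 0-week animals held the 3 highest uninjured values.

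ENSRNOG00000024545 stood in the opposite direction. Its level was 2.30, 4.08 and 3.12 CPM at 0 weeks and 7.58, 7.11 and 6.19 CPM at 2 weeks, with no overlap. The means were 3.17 ± 0.892 CPM (SD, n = 3) and 6.96 ± 0.709 CPM (SD, n = 3). The log2 fold change was 1.14 with a standard error of 0.24, and the adjusted p in edgeR was 0.238, with 0.0300 in DESeq2 and up to 0.684 over 13 other settings. This gene rests on 27, 43 and 28 counts at 0 weeks and on 85, 90 and 61 counts at 2 weeks. At 8 weeks its level in uninjured animals was 3.44 to 5.67 CPM and at 16 weeks 3.18 to 4.30 CPM, both below the 2-week range and overlapping the 0-week range.

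These genes head sets of 10 higher and 10 lower genes taken by the naming rule, those of smallest p among genes of average log2 CPM of at least 1 whose libraries did not overlap. The 10 higher genes differed by 0.51 to 1.92 on the log2 scale, and the adjusted p of each was 0.238. The 10 lower genes had log2 fold changes of -1.23 to -0.33 and adjusted p from 0.0641 to 0.238. None of the 20 therefore passed edgeR's test.

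The second question was which genes make the 0-week libraries so dispersed. The median over genes of the standard deviation between the 3 animals was 0.252 log2 CPM at 0 weeks, 0.142 at 2 weeks and 0.142 to 0.184 in the 6 groups other than 0 weeks. The 0-week value was 1.64 times the median of those 6 groups. The biological coefficient of variation, the relative spread of counts beyond counting noise, was 0.234 at 0 weeks, 0.122 at 2 weeks and 0.115 to 0.170 over the 6 groups. The fit of all 21 libraries, which gave the p-values above, had a common value of 0.160, below that of the 0-week group. The 0-week group had the largest SD of the 7 groups in 5674 genes (37.3%), where an equal share would be 14.3%, and the 2-week group in 979 genes (6.43%). These are descriptions of 3 animals per group and carry no test.

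The dispersion of the 3 animals was spread over many genes. The 500 genes with the largest SD held 29.4% of the 0-week sum of squares (the summed squared deviations from the group mean), less than the 35.5% to 42.7% that the corresponding 500 genes held in each other group. It took 1391 genes to reach 50% of the sum of squares at 0 weeks and 734 to 1049 in the others. An SD over 1 log2 CPM was found for 391 genes at 0 weeks and for 126 to 265 in the others, and an SD over 0.5 for 2913 genes against 1133 to 1791. Replicates 1 and 2 were the most dispersed pair, and the excess was smaller without either. Pairs were compared with pairs, since the SD of 2 libraries runs lower than that of 3. The median SD of the pair was 0.254 for replicates 1 and 2, 0.184 for replicates 1 and 3 and 0.177 for replicates 2 and 3, against 0.105 to 0.127 for the pairs at 2 weeks. The 18 pairs of the other 6 groups lay between 0.105 and 0.188 with a median of 0.128, which makes ratios of 1.99, 1.45 and 1.39. The pairs with replicate 3 thus lay within the range of the other groups, near its upper end. The share of the sum of squares held by the 500 most dispersed genes of a pair was 30.6% for replicates 1 and 2, below the 37.8% to 49.7% of the 18 other pairs, and 41.7% and 38.1% for the pairs with replicate 3, inside that range.

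The ratio of the 0-week SD to that of the other groups grew with abundance. The 0-week SD itself fell from 0.572 in the lowest class to 0.185 between 6 and 8, and was 0.255 above 8. Counting error adds to the SD of every group and is smallest in abundant genes, so the ratio can grow without a larger absolute excess. For the 604 genes under a mean log2 CPM of 0, the median SD at 0 weeks was 0.572 against 0.452 to 0.541 in the other groups, a ratio of 1.18 to their median. For the 3408 genes between 2 and 4 it was 0.278 against 0.184 to 0.232, a ratio of 1.43. For the 5169 genes between 4 and 6 the ratio was 1.68, and for the 2990 genes between 6 and 8 it was 1.91. In the 526 genes above 8, which took 44.3% of all 0-week counts, the 0-week SD was 0.255 against 0.0933 to 0.168, a ratio of 2.38. The share of genes with their largest SD at 0 weeks rose from 20.5% in the lowest class to 55.9% in the highest. In the other direction, genes between 0 and 2 held 31.8% of the sum of squares with 16.6% of the genes, and genes above 8 held 2.56%.

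**Figure D2:**
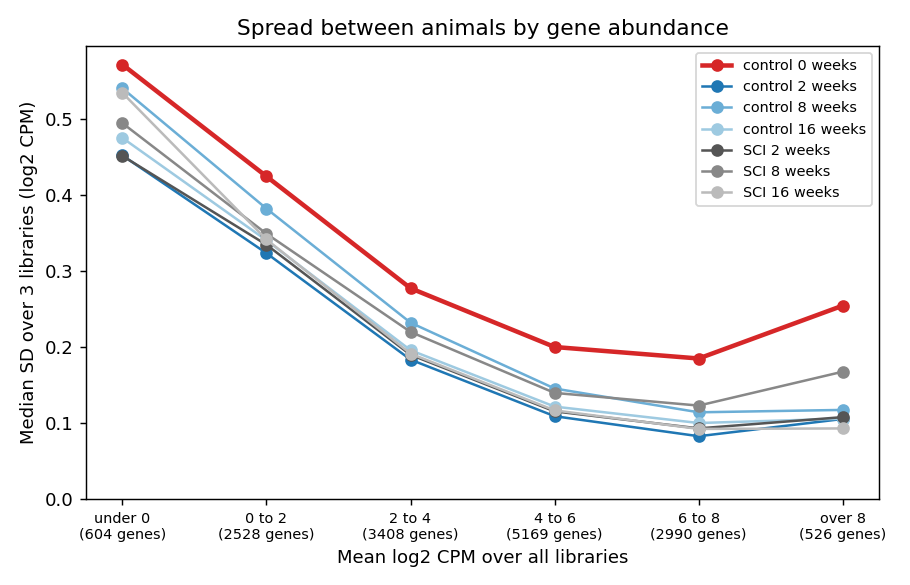
Median over genes of the SD between 3 libraries (vertical axis, log2 CPM) in classes of mean log2 CPM (horizontal axis, number of genes in brackets), 1 line per group. The 0-week line lies above all others in every class and turns up to 0.255 in the most abundant class, where the others lie between 0.0933 and 0.168.

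A set of genes near 0 in an animal and plainly present in another formed a small part of the spread. In 53 genes a 0-week library had at most 3 counts and another had at least 20, and these genes held 5.62% of the sum of squares. The other groups had 15 to 60 such genes, so the number at 0 weeks was inside their range. Of the 53 genes, 20 behaved in this way in another group also, and 50 had a mean log2 CPM under 2.

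The 15 genes of largest SD and a mean log2 CPM of at least 1 at 0 weeks had an SD of 1.65 to 2.71. The 2 given by identifier are the only 2 of the 15 that were near 0 in 1 animal and present in another. ENSRNOG00000003606 had 14.1, 0.285 and 3.90 CPM in 0-week replicates 1, 2 and 3, from 166, 3 and 35 counts. Its 2-week levels were 8.56, 5.45 and 8.11 CPM, all inside that range. The SD of its log2 CPM was 2.47 at 0 weeks and 0.18 to 1.49 in the other groups. The log2 fold change was 0.24 with a standard error of 0.67 and an adjusted p of 0.906 in edgeR, and without replicate 2 of the 0-week group it turned to -0.33 (adjusted p = 0.799).

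ENSRNOG00000006365 had 4.76, 0.0949 and 10.0 CPM at 0 weeks, from 56, 1 and 90 counts. Its 2-week libraries held 3, 1 and 4 counts, or 0.268, 0.0790 and 0.406 CPM, so the groups overlapped through 0-week replicate 2. Its adjusted p in edgeR was 0.314, and its log2 fold change was -4.28 with a standard error of 1.72, and -4.87 to -3.31 over 12 other settings. The same pattern recurred elsewhere: uninjured animals at 16 weeks ranged from 0 to 10.2 CPM and SCI animals at 16 weeks from 0.199 to 8.32 CPM. At 8 weeks all uninjured animals lay between 5.55 and 15.9 CPM. Its SD was 2.71 at 0 weeks and 0.45 to 3.04 in the other groups, so it was not at its widest at 0 weeks.

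**Figure D3:**
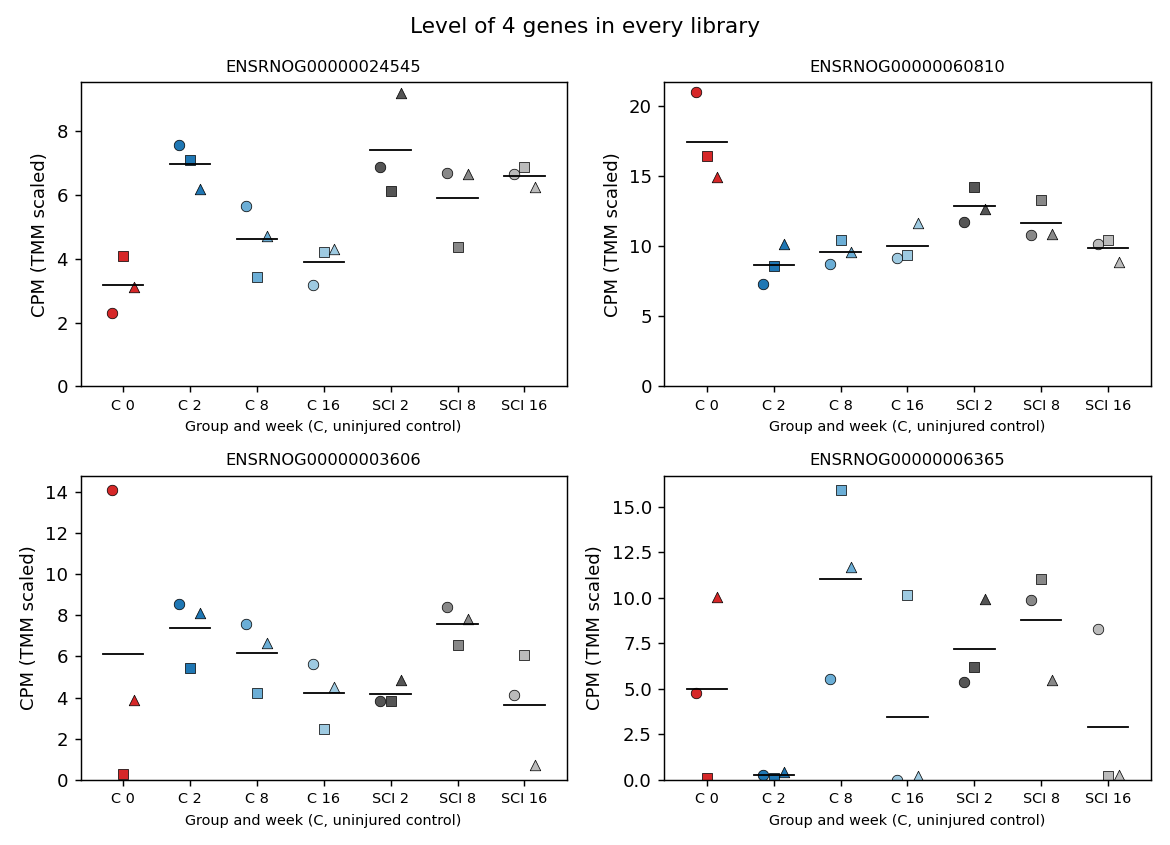
Level (vertical axis, CPM after TMM scaling) of 4 genes in all 21 libraries by group and week (horizontal axis). Circles, squares and triangles are replicates 1, 2 and 3 and lines are group means; the upper pair separates 0 from 2 weeks without overlap, and the lower pair spans 0.285 to 14.1 and 0.0949 to 10.0 CPM within the 0-week group.

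In the 15 genes of largest SD, replicate 1 stood apart from the other pair in 6 genes, replicate 2 in 6 and replicate 3 in 3. The 0-week group had the largest SD of the 7 groups in 12 of the 15. These 15 were chosen by their SD, so the values describe them and test nothing. Of the 15, 2 were abundant, and each was spread by a different animal. The more abundant, at an average log2 CPM of 9.04, had 48.1 CPM in replicate 1 against 372 and 380 CPM in replicates 2 and 3, and 546 to 773 CPM in the 2-week libraries. All 2-week animals were above all 0-week animals here, with an adjusted p of 0.318 in edgeR. The other, at 8.99, had 1817 CPM in replicate 3 against 223 and 146 CPM in replicates 1 and 2, and 24.7 to 76.1 CPM at 2 weeks. Its log2 fold change was -3.79 with an adjusted p of 0.238, and in uninjured animals at 16 weeks it ran from 27.6 to 1129 CPM, so it varied widely within a later group too.

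Replicate 3 stood apart less often than replicates 1 and 2. Over all 15225 genes, replicate 1 was the library farther from the other pair in 6124 genes holding 40.0% of the sum of squares, replicate 2 in 5865 genes holding 40.9%, and replicate 3 in 3236 genes holding 19.0%. Of the parts played by a single library in 1 direction, low levels in replicate 1 were the largest, with 3379 genes and 26.3% of the sum of squares. Replicate 3 had the middle value in 7203 genes (47.3%), replicate 1 in 24.7% and replicate 2 in 28.0%. The line from replicate 1 to replicate 2 took up 63.8% of the 0-week sum of squares, where the most distant pair of 3 libraries must take at least 50%.

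The distance between animals was measured as the root mean square of the log2 CPM difference over all tested genes. It was 0.542 to 0.665 between 0-week animals, 0.402 to 0.437 between 2-week animals and 0.390 to 0.555 for the 18 pairs inside the 6 other groups. Between 0-week replicates 1 and 2, 1859 genes were 2-fold apart. The other 0-week pairs had 1024 and 1003 such genes, inside the 446 to 1093 of the 18 pairs of the other groups, and pairs of 2-week animals had 451 to 543. From replicate 3 of the 0-week group to the 2-week animals the distance was 0.407 to 0.431, inside the range that 2-week animals kept among themselves. From replicate 1 it was 0.593 to 0.614 and from replicate 2 it was 0.516 to 0.579. Replicate 2 was 0.469 to 0.555 from the 8-week controls, and replicate 1 was 0.696 to 0.753 from them.

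**Figure D4:**
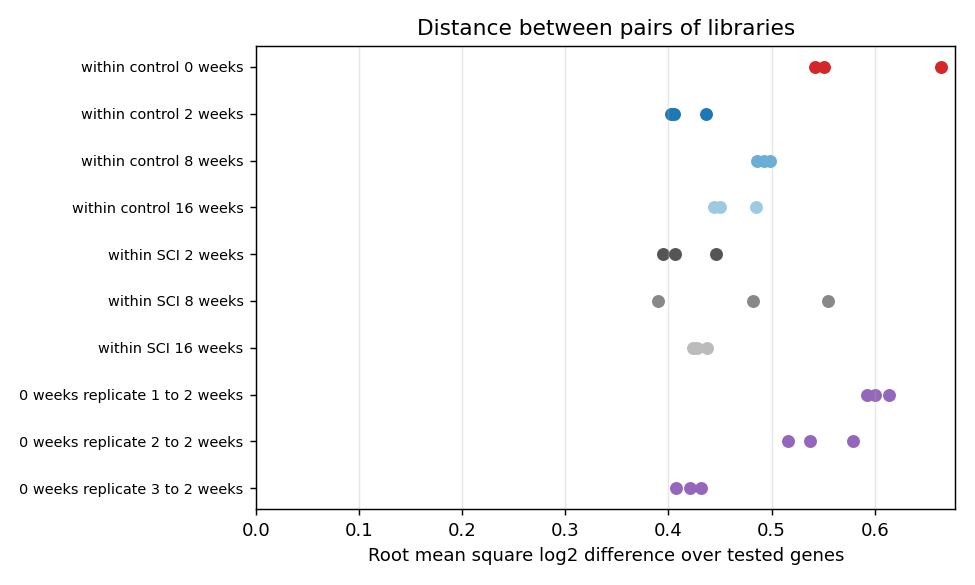
Root mean square log2 CPM difference over 15225 genes (horizontal axis) for each pair of libraries inside a group and for each 0-week animal against the 3 at 2 weeks. Pairs of 0-week animals lie at 0.542 to 0.665 and pairs of 2-week animals at 0.402 to 0.437, and 0-week replicate 3 lies as near to the 2-week animals as they lie to each other.

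The share of counts that sat on other genes in replicate 1 than in replicate 2 was 16.1% of a library. It was 9.59% and 12.4% for the other 0-week pairs, 5.33% to 7.45% between 2-week animals and 5.33% to 12.8% over the 18 pairs of the other groups. Abundant genes carried much of it. A single gene, higher in replicate 2, accounted for 3.90% of the counts that moved, 10 genes for 14.9% and 100 genes for 34.9%. Of these 10 genes 9 were higher in replicate 2, and of the 100 genes 64 were. Of the 500 genes that moved most, with 54.8% of the moved counts, 205 were higher in replicate 2 and 295 in replicate 1. The 10 did not share a single pattern. The gene that moved most had 11689 CPM in replicate 1, 26952 in replicate 2 and 14727 in replicate 3, with 12407 to 15228 CPM at 2 weeks and 21516 to 30379 CPM in the 8-week controls, so here replicate 2 stood apart inside the range of the 8-week animals. The gene ranked 5 was low in replicate 1 alone, at 4625 CPM against 10058 and 8763 CPM, with 8971 to 10596 CPM at 2 weeks. The gene ranked 4 had 29512, 38913 and 21274 CPM in replicates 1, 2 and 3 and 16581 to 23811 CPM at 2 weeks, and it had 2484 to 5499 CPM in the SCI animals at 16 weeks. None of the 10 passed edgeR's test between 0 and 2 weeks, with adjusted p from 0.392 to 0.981. The 10 most abundant genes took 14.3% of all counts in replicate 2, 10.7% in replicate 1 and 10.3% in replicate 3, and 9.51% to 10.7% in the 2-week libraries. The TMM factor, which falls when a few genes take a larger share, was 0.903 in replicate 2, the lowest of all 21 libraries, and 1.00 in the other 0-week animals. The identity of these abundant genes, and with it the part that a layer of the bladder wall, muscle or fat outside it, or RNA quality had in the difference, was not tested.

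The genes that were 2-fold apart between 0-week replicates 1 and 2 fell into 763 higher in replicate 1 (5.01% of all tested) and 1096 higher in replicate 2 (7.20%). They were chosen on those 2 libraries, so only the other libraries bear on them. Replicate 3 lay between the pair in 582 of the 763 genes (76.3%) and in 879 of the 1096 (80.2%), beside 47.3% of all genes. All 3 libraries at 2 weeks lay between the pair in 440 (57.7%) and 619 (56.5%) of them, beside 21.9% of all genes. A pair that is farther apart leaves more room between its ends, so these larger shares follow in part from the choice.

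The values of these genes in groups that hold no 0-week library were then set beside those of all genes, as a description, and in each comparison counted here most members did not pass. From 2 to 8 weeks in uninjured animals, genes higher in replicate 1 had a median log2 fold change of -0.32 and genes higher in replicate 2 of 0.36, beside 0.00 for all genes. At an unadjusted p under 0.05 in edgeR's test, 10.3% of all genes were higher at 8 than at 2 weeks and 8.67% lower. Among the 763 genes higher in replicate 1, 14 (1.83%) were higher and 146 (19.1%) lower at 8 weeks. Among the 1096 genes higher in replicate 2, 286 (26.1%) were higher and 17 (1.55%) lower. From 8 to 16 weeks the medians were -0.06 and -0.03.

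After SCI the medians of both sets had the opposite sign to the change from 2 to 8 weeks, and most members were not called at 8 or 16 weeks. At 8 weeks, edgeR called 3.28% of all genes higher and 5.14% lower after SCI than in controls at an adjusted p under 0.05. Among genes higher in replicate 1, 56 (7.34%) were called higher and 16 (2.10%) lower, with a median log2 fold change of 0.42. Among genes higher in replicate 2, 2 (0.182%) were called higher and 120 (10.9%) lower, with a median of -0.50. At 16 weeks, 2.38% of all genes were called higher and 3.24% lower. Of the genes higher in replicate 1, 48 (6.29%) were called higher and 3 (0.393%) lower, with a median of 0.44. Of those higher in replicate 2, 5 (0.456%) were called higher and 28 (2.55%) lower, with a median of -0.41. At 2 weeks the medians were 0.07 and -0.10. The comparisons at 8 weeks share the 8-week controls with the change from 2 to 8 weeks, the comparison at 2 weeks shares the 2-week controls with it, and the comparison at 16 weeks shares neither.

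Across all 15225 genes, the difference of replicate 1 minus replicate 2 had a Pearson correlation of -0.38 (Spearman -0.44) with the change from 2 to 8 weeks in controls and of -0.01 (Spearman 0.05) with that from 8 to 16 weeks. With the SCI effect the Pearson correlations were 0.14, 0.42 and 0.37 for weeks 2, 8 and 16, and the Spearman correlations 0.20, 0.48 and 0.38. The points are genes of the same libraries, which are not independent, and no p is given.

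Each library was then placed on the line from 0-week replicate 2 (position 0) to 0-week replicate 1 (position 1), where a library equally far from both lies at 0.5. Replicate 3 lay at 0.489 and the 2-week controls at 0.374 to 0.481. The 8-week controls lay at 0.118 to 0.284 and the 16-week controls at 0.160 to 0.226, nearer to replicate 2 along this line than any 2-week control. In root mean square distance from replicate 2 the groups overlapped. It was 0.516 to 0.579 for the 2-week controls, 0.469 to 0.555 for the 8-week and 0.475 to 0.572 for the 16-week controls. The SCI libraries lay at 0.359 to 0.620 at 2 weeks, 0.351 to 0.650 at 8 weeks and 0.421 to 0.480 at 16 weeks. The 100 most abundant genes of each library took 31.9% of its counts in 0-week replicate 2, 28.2% to 30.1% in the 8-week controls and 26.2% to 29.2% in the 16-week controls. The share was 25.2% and 25.5% in 0-week replicates 1 and 3, 24.5% to 26.1% in the 2-week controls and 20.6% to 25.7% in the SCI libraries. These shares did not follow the positions throughout, and their part in them was not tested.

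**Figure D5:**
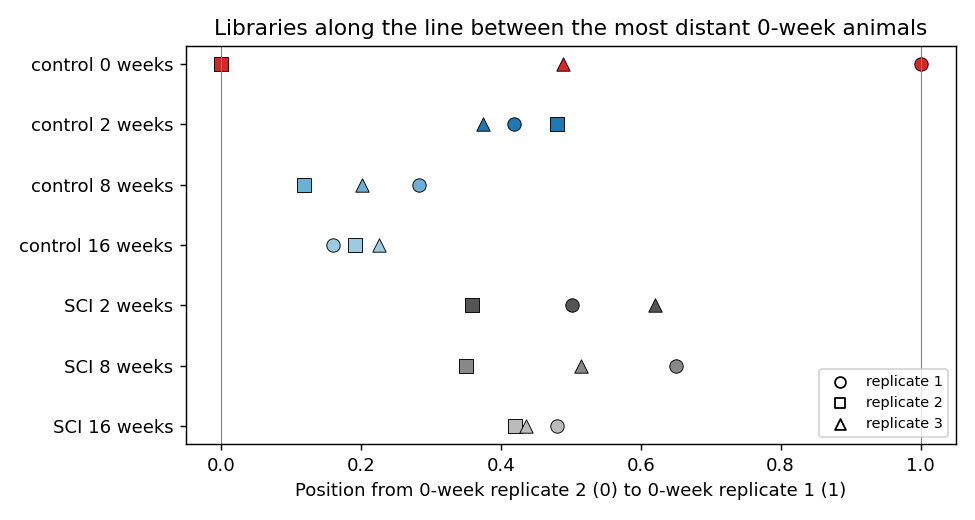
Position of all 21 libraries (horizontal axis, no unit) between 0-week replicate 2 at 0 and 0-week replicate 1 at 1, by group, with circles, squares and triangles for replicates 1, 2 and 3. The 2-week controls lie at 0.374 to 0.481 beside 0-week replicate 3 at 0.489, and the 8-week and 16-week controls lie at 0.118 to 0.284.

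The lack of calls between 0 and 2 weeks depended on 0-week replicate 3 and on the test, since DESeq2 called 45 genes with all animals kept. Without 0-week replicate 3, the animal nearest to the 2-week group, edgeR called 82 genes, 27 higher and 55 lower at 2 weeks, with 2807 at an unadjusted p under 0.05. Without 2-week replicate 2 it called 1 gene. Without any of the other 4 libraries it called 0. Without 0-week replicate 1 the number at an unadjusted p under 0.05 fell to 1268, and in a fit of only the 6 libraries it was 1025.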

How the data were processed

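RNA was sequenced as stranded, ribosome-depleted paired-end libraries, and the counts of both flow cells were combined by the authors. The submitters' processing notes name Trim Galore 0.6.10, STAR 2.7.10a, featureCounts 2.0.3 and the build Rnor_6.0. The annotation release and the strand setting of the counting are not given in the sources used here, so overlapping and near-identical genes may share reads. The deposited values are raw counts per gene.

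From these counts, filterByExpr and TMM factors of edgeR (version 4.0.16, R 4.3.3) were applied and all 21 libraries were fitted in a quasi-likelihood model with 1 mean per group (14 residual degrees of freedom). P-values were Benjamini-Hochberg adjusted over 15225 genes. Standard errors came from the F statistic. Log2 CPM used a prior count of 2. DESeq2 (1.42.0) and voom with quality weights (limma 3.58.1) were alternatives, with RLE or no scaling factors, other filters, fewer libraries, a replicate block and each library left out. Thinning to the smallest total (8087726 counts) was added after seeing the data. Totals over all libraries reached 15472537, so a gene at 1 CPM rests on few counts.

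Replicate pairs differed by more than sampling noise (chi-square per degree of freedom 8.28 to 59.9). The test was tried on simulated counts in which each gene had the same spread in every group. A wider spread at 0 weeks, as in these data, was not part of that trial of the test. Named genes were the 10 higher and 10 lower genes of smallest p without overlap and the 15 of largest SD at 0 weeks. The rule's condition on symbols could not be applied, and only the highest-ranked gene of each direction in each part is printed by identifier. The comparison and the gene lists were chosen with earlier results of these data known, and the lists could not be used without symbols.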

Additional observations from a re-analysis of the deposited data

How the results depend on the processing

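The count of 0 called genes was also obtained with voom quality weights, RLE factors, library size, both other filters, the 6 libraries alone, the 12 control libraries, the replicate block and thinned counts. It became 45 with DESeq2 and 0 to 82 when each library was left out (82 without 0-week replicate 3, 1 without 2-week replicate 2, otherwise 0). DESeq2 and the fit without 0-week replicate 3 shared 14 of their genes. At an unadjusted p under 0.05 with a log2 fold change of at least 0.5, 736 genes passed. The 2044 genes at an unadjusted p under 0.05 became 1345 with voom quality weights, where 0-week replicates 1 and 2 had weights of 0.253 and 0.363. Their number was 1025 in the fit of 6 libraries. That fit has fewer residual degrees of freedom and takes its spread from the 0-week and 2-week groups alone, and the part of each was not tested. The number ranged from 1268 (without 0-week replicate 1) to 2807 when libraries were left out and from 1561 to 2213 elsewhere.

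Same-numbered replicates of the 2 weeks were not treated as paired in the main fit. Their deviations correlated at 0.01, -0.18 and -0.04, and those of differently numbered replicates at -0.11 to 0.14. Whether same-numbered replicates shared a processing step was not tested. The replicate block gave 0 calls and 2123 genes at an unadjusted p under 0.05.

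Genes whose libraries did not overlap numbered 2383, 2278 to 2386 under other scalings, filters and thinning, and 3277 to 4595 with a library left out, since fewer libraries overlap less often. With a 0-week library left out, the median 0-week SD was 0.177 to 0.254, its ratio to the other groups 1.15 to 1.65 and the share of the 500 most dispersed genes 30.6% to 41.7%; the first ratio sets pairs against groups of 3, and the ratio of pairs to pairs, added after seeing the data, was 1.39, 1.45 and 1.99 without replicates 1, 2 and 3. That share was 35.3% with a prior count of 0.5, which widens genes of low counts, and the other settings kept the SD at 0.242 to 0.265. The 1859 genes 2-fold apart between 0-week replicates 1 and 2 became 1560 to 2055. The log2 fold change of ENSRNOG00000003606 turned to -0.33 without 0-week replicate 2 and ranged from -0.33 to 1.87 with a library left out; the other 3 printed genes kept their sign. Levels of gene lists per library could not be computed without symbols. Genes under about 1 CPM rest on few counts, so small differences there were not detectable.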
